A study of Rattus norvegicus with 6 samples.

Results

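The 10 genes described here encode the 7 mammalian sirtuins (Sirt1 to Sirt7) and 3 enzymes that make or spend the NAD on which sirtuins depend (Nampt, Nmnat1 and Parp1). They were chosen by name for their link between NAD metabolism and the circadian clock, out of 32623 genes listed in the deposited table. By symbol 9 were found. Sirt1 is listed under the placeholder symbol AABR07044925 and was recognised by the NCBI gene identifier in its description, which RefSeq gives as Sirt1. All 10 passed the filter on low counts that left 14342 genes for testing.

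Expression was read by RNA sequencing of nucleus pulposus cells, which fill the gelatinous centre of the spinal disc. Male Sprague-Dawley rats at 4 weeks of age gave the lumbar discs, and the cultures, at passage 3 to 5, had spent 72 hours with a lentivirus. In 3 libraries (shBmal1) the virus encoded a hairpin RNA that targets Bmal1, and in the 3 controls (shNC) a hairpin meant to target nothing. Nothing in the labels ties a library to its own culture or animal, so the spread behind each p-value may be technical.

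Sirtuins are enzymes that remove acetyl and other acyl groups from proteins and consume NAD with each reaction, releasing nicotinamide. NAMPT turns nicotinamide into nicotinamide mononucleotide, the rate-limiting step of the salvage pathway, and NMNAT1 completes NAD in the nucleus. PARP1 spends NAD to build poly(ADP-ribose) chains at DNA breaks and so draws on the same pool. In mouse, CLOCK and BMAL1 are known to bind E-box elements at Nampt, NAD levels cycle over the day, and SIRT1 deacetylates clock proteins in return. The comparison asks how the transcripts of this loop differ when Bmal1 is knocked down.

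Bmal1, listed as Arntl, was lower in every shBmal1 library. The control libraries held 8.38, 9.19 and 9.90 FPKM (the authors' read count scaled for gene length and library depth), and the shBmal1 libraries 0.716, 1.39 and 0.690 FPKM. In edgeR's quasi-likelihood fit this was a log2 fold change of −3.37 ± 0.26 (SE), and the p adjusted by Benjamini-Hochberg over all tested genes was 1.17e-05. Permuting the 6 libraries exactly, 2-sided, cannot go below p = 0.1, and gave that value.

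The groups differed broadly, and in ways other than Bmal1. Each shNC library had 44043803 to 49783710 counts and each shBmal1 library 8773762 to 11679587, a 4.44-fold difference in means, so that 3 counts correspond to at most 0.0681 CPM (counts scaled to a common library size) in shNC and 0.342 CPM in shBmal1. Mitochondrial rRNA took 0.0330% to 0.0602% of counts in shNC and 0.722% to 1.31% in shBmal1. Other rRNA took 0.0041% to 0.017% in shNC and 0.104% to 0.374% in shBmal1. At an adjusted p under 0.05, 71.3% of tested genes were called, 36% higher and 35.3% lower in shBmal1 (edgeR). Of 16 marker names of nucleus pulposus and notochord cells, 13 were found, and their summed level was 2850 to 3070 CPM in shNC and 441 to 462 CPM in shBmal1. Acan, Pax1 and Mgp carried most of it and fell. Foxf1 and Ca3 rose by 0.56 and 1.35 on the log2 scale, Sox9 came to −0.04 and was not called, and Tbxt, a defining notochord gene, had no count in any library. Summed markers of fibroblast and tendon cells (7 of 8 names found) ran from 78600 to 92100 CPM in shNC and from 9690 to 12500 CPM in shBmal1, and those of smooth muscle (5 of 5) from 4080 to 4410 and from 743 to 857 CPM, although Des and Myh11 among the latter rose by 2.93 and 0.62. Endothelial markers (4 of 5) summed to 0.425 to 1.02 CPM against 6.87 to 9.91 CPM, and immune markers (6 of 6) to 32.4 to 43.7 CPM against 29.1 to 38.3 CPM. Most of the immune sum was Cd14, which fell by 0.40, while the macrophage genes Cd68 and Lyz2 rose by 2.81 and 2.25. The 5 adipocyte markers summed to 0 CPM against 4.63 to 7.62 CPM, with Plin1, Fabp4 and Cfd at 0 in every library and Adipoq at 5.01 ± 1.26 CPM in shBmal1. The labels' extraction protocol, worded the same for both groups, speaks of an adipose type and of RNA fractions with or without poly(A). This goes against the labelled cells and leaves the RNA fraction uncertain, also whether it was the same in both groups. The part that depth, rRNA, the RNA fraction and these marker levels have in the results on sirtuins and NAD enzymes was not tested. In bulk RNA, fewer cells of a type and less RNA per cell cannot be told apart.

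Of the 10 transcripts, 2 rose in shBmal1 (Sirt1 and Sirt7), 4 fell (Parp1, Sirt3, Sirt5 and Nampt) and 4 did not pass the test (Sirt2, Sirt4, Sirt6 and Nmnat1). Thus 6 of 10 were called, where 71.3% of all tested genes were called. The median log2 fold change of the 10 was −0.36, against −0.01 over all tested genes, and the median size of the change regardless of sign was 0.56, against 1.06 over all tested genes. The CPM values of the groups did not overlap for 7 of the 10, and for 77.3% of all tested genes. In limma on log2(FPKM + 1) the median of all genes was 0.05 and 52.9% of calls were higher, against 50.5% in edgeR. When FPKM was rescaled to TPM, which gives each library the same length-scaled total, these came to −0.35 and 37.8% (limma). On that scale Sirt2, Sirt6 and Nmnat1 were also called lower (adjusted p = 0.0284, 0.0236 and 0.0037, limma).

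**Figure D1:**
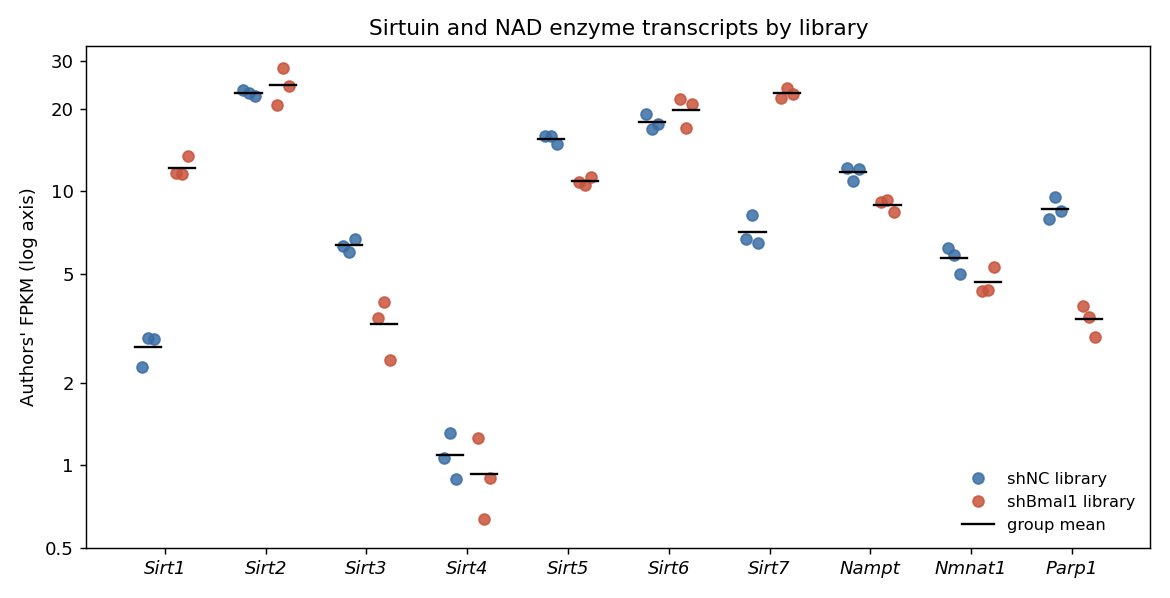
Authors' FPKM (log axis) of the 10 transcripts in each library, shNC in blue and shBmal1 in red, with the group mean as a black line. The 3 shBmal1 libraries lie above all shNC libraries for Sirt1 (at least 11.5 FPKM against at most 2.92) and Sirt7 (at least 21.9 against at most 8.22), and below them for Sirt3, Sirt5, Nampt and Parp1.

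The nuclear sirtuins did not move together. Sirt1 encodes the founding nuclear deacetylase of the family, whose substrates include p53, FOXO factors and, in mouse, BMAL1 and PER2. Its row (ENSRNOG00000051592, protein-coding, chromosome 20, 26833357 to 26852199, reverse strand, in coordinates of the deposited table, which names no build) held 2.28, 2.92 and 2.89 FPKM in shNC and 11.7, 11.5 and 13.4 FPKM in shBmal1. The lowest shBmal1 library was far above the highest shNC library. The raw counts were similar in both groups, at 290, 387 and 339 in shNC and 284, 370 and 419 in the shallower shBmal1 libraries. Scaled counts rose 4.19-fold, from 7.59 ± 0.94 to 31.8 ± 2.48 CPM (SD, n = 3 per group), with a log2 fold change of 2.07 ± 0.14 (SE; adjusted p = 5.18e-06, edgeR). Of all tested genes, 77.7% changed by less in either direction. Over all 19 alternative settings of scaling, filtering, test and left-out library, the log2 fold change of Sirt1 stayed between 1.56 and 2.23.

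Sirt7 encodes a nucleolar sirtuin known for promoting RNA polymerase I transcription and for deacetylating histone H3. It lies on chromosome 10 (ENSRNOG00000036683, 109796020 to 109802739, reverse strand). The shNC libraries had 6.67, 8.22 and 6.49 FPKM and the shBmal1 libraries 21.9, 23.7 and 22.7, with no overlap and a smaller relative spread in shBmal1. The level rose 2.96-fold, from 13.5 ± 1.80 to 39.9 ± 1.68 CPM (edgeR log2 fold change 1.56 ± 0.12, SE, with adjusted p = 1.19e-05).

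Sirt6, whose product is a chromatin deacylase acting on histone H3 at telomeres and glycolytic genes, was the most abundant nuclear sirtuin in shNC. It measured 19.1, 16.8 and 17.6 FPKM in shNC and 21.7, 17.1 and 20.8 FPKM in shBmal1, and the groups overlapped. The log2 fold change was 0.04 ± 0.12 (SE; adjusted p = 0.759, edgeR), and it came to −0.33 with TPM, close to the shift of all genes on that scale. The gene lies on chromosome 7 (ENSRNOG00000006393, 10937599 to 10943063, forward strand). The FPKM ratio of Sirt7 to Sirt6, which is free of library scaling because both are read from the same library, came to 0.349, 0.489 and 0.369 in the controls and to 1.01, 1.39 and 1.09 in shBmal1. Sirt7 was thus below Sirt6 in every shNC library and above it in every shBmal1 library.

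Promoters of the 4 called sirtuins and NAD enzymes that held a clock-related motif are shown so that the motifs can be seen beside the changes. They are RefSeq sequences in build GRCr8, running from 250 bases before to 50 bases after the annotated gene start, given 5′ to 3′ on the gene's strand. Such a sequence was available for 8 of the 10 genes. None was available for Nampt and Sirt6, so their promoters were not searched. Capitals mark the E-box CACGTG, bound by CLOCK and BMAL1, its variant CACGTT, called E-prime box, or the half-site AGGTCA, which REV-ERB and ROR receptors recognise with flanking bases. The Sirt1 promoter lies at chr20:25305703-25306002 (forward strand), that of Sirt7 at chr10:106401449-106401748 (reverse), that of Parp1 at chr13:94839234-94839533 (forward) and that of Sirt5 at chr17:21543007-21543306 (reverse).
Sirt1: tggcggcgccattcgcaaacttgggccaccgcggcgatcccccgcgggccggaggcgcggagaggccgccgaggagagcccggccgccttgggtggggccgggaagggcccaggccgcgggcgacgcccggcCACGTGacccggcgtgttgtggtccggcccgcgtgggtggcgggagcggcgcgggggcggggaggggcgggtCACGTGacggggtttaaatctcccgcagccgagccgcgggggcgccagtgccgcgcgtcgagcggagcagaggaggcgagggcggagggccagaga
Sirt7: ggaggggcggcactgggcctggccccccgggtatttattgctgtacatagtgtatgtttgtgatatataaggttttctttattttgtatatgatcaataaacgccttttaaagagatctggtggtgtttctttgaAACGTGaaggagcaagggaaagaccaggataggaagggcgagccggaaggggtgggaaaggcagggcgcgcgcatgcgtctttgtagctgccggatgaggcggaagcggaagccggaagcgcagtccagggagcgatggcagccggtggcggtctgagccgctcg
Parp1: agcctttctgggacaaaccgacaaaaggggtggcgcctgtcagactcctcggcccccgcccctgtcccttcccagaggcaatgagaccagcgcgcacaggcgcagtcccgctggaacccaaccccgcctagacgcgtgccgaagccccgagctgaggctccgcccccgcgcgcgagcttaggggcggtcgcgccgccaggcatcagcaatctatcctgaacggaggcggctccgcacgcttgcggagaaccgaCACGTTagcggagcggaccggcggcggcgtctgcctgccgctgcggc
Sirt5: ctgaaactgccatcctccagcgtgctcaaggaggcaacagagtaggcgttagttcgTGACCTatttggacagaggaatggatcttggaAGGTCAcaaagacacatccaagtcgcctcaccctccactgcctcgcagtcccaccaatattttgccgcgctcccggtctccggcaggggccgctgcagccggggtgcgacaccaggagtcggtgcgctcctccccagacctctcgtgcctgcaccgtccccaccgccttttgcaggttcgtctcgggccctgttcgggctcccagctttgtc

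The Sirt1 promoter held 2 copies of CACGTG, whose first bases lie at −118 and −46 from the start site. Among 33465 RefSeq promoters of this length, 6.42% held at least 1 copy and 0.52% held at least 2 on either strand. No other of the 8 promoters held this motif, and those of Nampt and Sirt6 were not searched. CACGTT was found at −115 in Sirt7 (on the opposite strand, read as AACGTG), at −68 in Sirt2 (also opposite) and at 4 in Parp1, and in 4.83% of all promoters. The Sirt5 promoter held AGGTCA at −162 and its reverse complement at −194, a motif present in 16.2% of all promoters. The D-box TTATGTAA, the element of PAR bZIP factors, was in none of the 8 and in 0.893% of all promoters. Transcripts with an E-box or E-prime box at the start thus included a pair that rose (Sirt1, Sirt7), 1 that fell (Parp1) and 1 that was not called (Sirt2). The Sirt1 window also had 47 CpG dinucleotides, more than 98.7% of promoters, of which the median was 7. CACGTG itself holds a CpG, and the motif rates over all promoters were not matched for CpG content. A match describes the letters and is no evidence of binding. The table and GRCr8 give Sirt1 and Sirt5 opposite strands, and the other 6 genes the same strand. Coordinates of the 2 sources are not to be mixed.

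**Figure D2:**
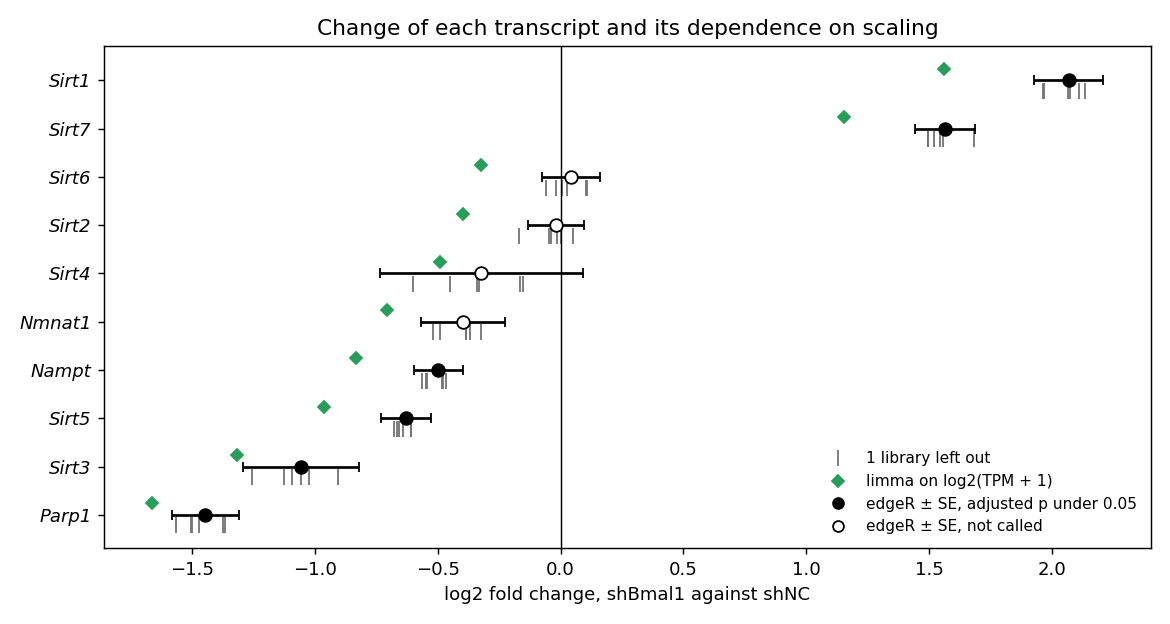
Log2 fold change of each transcript in shBmal1 against shNC from edgeR with its SE (black, filled where the adjusted p was under 0.05), with the value after leaving out each library in turn (grey ticks) and the value from limma on log2(TPM + 1) (green). Sirt1 and Sirt7 stay above 0 and Parp1, Sirt3, Sirt5 and Nampt below 0 under all settings shown, while Sirt2 and Sirt6 lie about 0 in edgeR and at −0.40 and −0.33 with TPM.

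The mitochondrial sirtuins were lower or unresolved. Sirt3 encodes the main mitochondrial deacetylase, which acts on enzymes of the respiratory chain, the citrate cycle and superoxide defence (ENSRNOG00000013828, chromosome 1, 213613513 to 213635546, reverse strand). It stood at 6.34, 6.01 and 6.71 FPKM in the controls and at 3.44, 3.95 and 2.43 FPKM in shBmal1, so the groups were separate and shBmal1 replicate 3 was the lowest. Scaled counts fell from 9.56 ± 0.49 to 4.6 ± 1.1 CPM, or to 48.1% of control (log2 fold change −1.06 ± 0.24, SE; adjusted p = 0.00415, edgeR). The shBmal1 values rest on 45, 68 and 41 counts.

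Sirt5, which encodes a desuccinylase and demalonylase of mitochondria (ENSRNOG00000017866, chromosome 17, 23986758 to 24013881, forward strand), was more abundant. It measured 15.9, 15.9 and 14.9 FPKM in shNC and 10.8, 10.6 and 11.2 FPKM in shBmal1, and no library of one group reached the other. It fell to 64.7% of control, from 27.1 ± 1.3 to 17.6 ± 0.41 CPM (edgeR log2 fold change −0.63 ± 0.10, SE, with adjusted p = 0.000768). Its spread in shBmal1 was 2.35% of the mean, the lowest of the 10 transcripts.

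Sirt4, which encodes a mitochondrial lipoamidase and ADP-ribosyltransferase that restrains glutamate dehydrogenase, was the rarest of the 10 (ENSRNOG00000001151, chromosome 12, 46868416 to 46876592, forward strand). Control libraries had 1.07, 1.31 and 0.892 FPKM of it, shBmal1 libraries 1.25, 0.636 and 0.898 FPKM, and the groups overlapped. With 20, 14 and 19 counts in the shBmal1 libraries, the log2 fold change was −0.32 ± 0.41 (SE; adjusted p = 0.506, edgeR).

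Sirt2 encodes the mainly cytoplasmic sirtuin, a tubulin deacetylase that also enters the nucleus in mitosis (ENSRNOG00000020102, chromosome 1, 86948918 to 86971952, forward strand). It had the highest mean of the 10 in both groups, with 23.5, 22.9 and 22.3 FPKM in shNC. The shBmal1 libraries had 20.7, 28.1 and 24.3 FPKM. In shBmal1 replicate 1 it lay below Sirt7 (21.9 FPKM) and Sirt6 (21.7 FPKM). The shBmal1 libraries lay on both sides of the shNC libraries, and the log2 fold change was −0.02 ± 0.11 (SE; adjusted p = 0.894, edgeR).

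The make-up of the sirtuin transcripts differed between the groups. The 7 sirtuins summed to 71.7 to 74.9 FPKM per library in shNC and 91.5 to 95.9 FPKM in shBmal1. Rescaled to TPM, an alternative added after seeing the data, the same sum was 172 to 183 in shNC and 153 to 169 in shBmal1, so its direction turned with the scaling and is not given as a change. Sirt7 made up 9.68 ± 1.22% of this sum in shNC and 24.2 ± 0.60% in shBmal1, and Sirt1 3.67 ± 0.54% and 12.9 ± 0.99% (SD, n = 3). Sirt5 made up 21.2 ± 0.38% and 11.5 ± 0.40%, and Sirt3 8.64 ± 0.65% and 3.48 ± 0.83%. Summed FPKM of the nuclear sirtuins Sirt1, Sirt6 and Sirt7 was 1.21, 1.20 and 1.20 times that of the mitochondrial sirtuins Sirt3, Sirt4 and Sirt5 in the shNC libraries, and 3.57, 3.45 and 3.91 times in the shBmal1 libraries. These shares and ratios are taken within a library and do not depend on scaling between libraries. They are given as a description with no test, since the grouping was made with the values known.

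**Figure D3:**
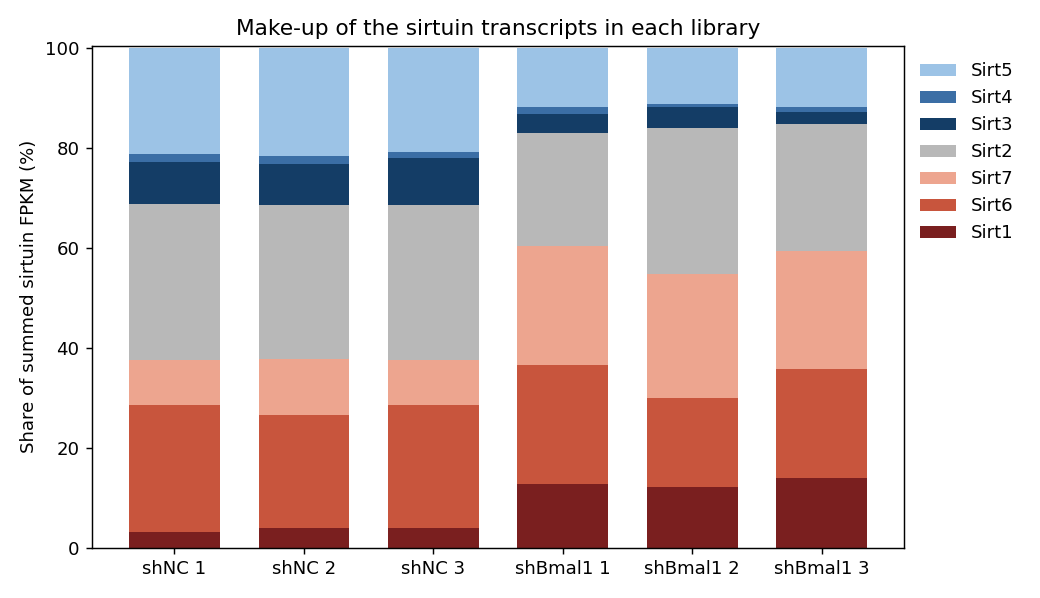
Share of each sirtuin in the summed sirtuin FPKM (percent) in the 6 libraries, with nuclear sirtuins in red tones, Sirt2 in grey and mitochondrial sirtuins in blue tones. Sirt7 grows from 9.68% on average in shNC to 24.2% in shBmal1 and Sirt1 from 3.67% to 12.9%, while Sirt5 shrinks from 21.2% to 11.5%.

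Both enzymes of the salvage pathway had lower mean levels. Nampt (ENSRNOG00000009754, chromosome 6, 52122085 to 52156472, forward strand) measured 12.2, 10.9 and 12.1 FPKM in shNC and 9.13, 9.31 and 8.38 FPKM in shBmal1. Every shBmal1 library lay below every shNC library. Scaled counts fell from 34.2 ± 2.16 to 24.2 ± 1.5 CPM, which left 70.9% of control (log2 fold change −0.50 ± 0.10, SE; adjusted p = 0.00244, edgeR). Of all tested genes, 25% changed by less in either direction. With scaling by library size alone it came to −0.34 (adjusted p = 0.016, edgeR).

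Nmnat1 (ENSRNOG00000015962, chromosome 5, 166409461 to 166430254, reverse strand) had an FPKM of 6.22, 5.88 and 4.99 in shNC and 4.31, 4.35 and 5.28 in shBmal1. On this scale shBmal1 replicate 3 lay above shNC replicate 3, while in TMM-scaled CPM the groups just separated (11.3 to 14.4 against 9.27 to 11.1). The log2 fold change was −0.40 ± 0.17 (SE; adjusted p = 0.0662, edgeR). Without shBmal1 replicate 3 it was −0.52 and passed the test (adjusted p = 0.0363, edgeR).

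Parp1 fell the most among the 10 (ENSRNOG00000003084, chromosome 13, 98857177 to 98889716, forward strand). It had 7.91, 9.55 and 8.44 FPKM in the controls, against 3.83, 3.49 and 2.94 FPKM after knockdown, with the groups far apart. Scaled counts fell from 36.5 ± 3.40 to 13.4 ± 1.85 CPM, or to 36.8% of control (log2 fold change −1.45 ± 0.14, SE; adjusted p = 3.46e-05, edgeR). The FPKM ratio of Nampt to Parp1 came to 1.54, 1.14 and 1.43 in the controls and to 2.38, 2.67 and 2.85 in shBmal1, and was higher in each shBmal1 library than in any control although both transcripts fell.

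Ordered by FPKM, the shNC libraries ran Sirt2, Sirt6, Sirt5, Nampt, Parp1, Sirt7, Sirt3, Nmnat1, Sirt1 and Sirt4. Neighbours from Parp1 to Nmnat1 in this order overlapped in their library values, and the others did not. In shBmal1 the order by mean was Sirt2, Sirt7, Sirt6, Sirt1, Sirt5, Nampt, Nmnat1, Parp1, Sirt3 and Sirt4. There Sirt2 overlapped Sirt7 and Sirt6, and Parp1 overlapped Sirt3. Sirt1 thus moved from rank 9 to rank 4 and Parp1 from rank 5 to rank 8. Against all tested genes, the mean FPKM of Sirt1 exceeded 33.1% of genes in shNC and 66.2% in shBmal1, that of Sirt7 54.1% and 77.9%, and that of Parp1 58.9% and 38.2%. Counts not divided by length put Parp1 second in shNC, its length, as counts and FPKM imply it, being the longest of the 10 at 1.59 times the median of well-counted genes.

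Among the genes whose pattern over the 6 libraries was most like that of Nampt were Ireb2 (root-mean-square difference of log2 CPM, each relative to the shNC mean, of 0.0264), which encodes an iron-responsive RNA-binding protein, and Sec63 (0.0488), which encodes a protein of endoplasmic reticulum translocation. For Sirt1 they were the ribosomal protein gene Rps20 (0.0665), Cyp1b1 (0.0828), which encodes a cytochrome P450, and Mettl6 (0.0833), which encodes a tRNA methyltransferase. They were drawn from 6591 and 6592 genes with at least 10 CPM in both groups. Because it includes the group difference, the measure favours genes with a similar fold change. The log2 fold changes were −0.49 for Ireb2 and −0.46 for Sec63, and 1.972 for Rps20, 1.917 for Cyp1b1 and 1.975 for Mettl6. Shared regulation was not tested.

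Other genes of NAD synthesis, of its precursors, and of NAD phosphorylation or transport were lower in 6 of 11 cases. Besides Nampt and Nmnat1, 18 such genes were found and 11 had enough counts to be tested, of which 6 fell, 1 rose and 4 did not pass (median log2 fold change −1.06, against −0.01 over all tested genes). Over all tested genes 71.3% were called and 35.3% were lower. The 6 that fell were Pnp, Nt5e, Nadk, Slc25a51, Naprt and Afmid. Afmid had 2, 0 and 9 counts in shBmal1 and was called in 12 of the 18 alternative settings that tested it. Over the alternative settings, 5 to 8 genes of this list were lower. Pnp, whose product splits nicotinamide riboside to nicotinamide, fell from 198 ± 7.65 to 64.4 ± 10.1 CPM (log2 fold change −1.63; adjusted p = 5.98e-06, edgeR). Nadk, the cytosolic NAD kinase that makes NADP, fell from 94.4 ± 5.01 to 45.3 ± 8.57 CPM (−1.06; adjusted p = 0.000179, edgeR). Slc25a51, which encodes the mitochondrial NAD carrier, fell from 19.1 ± 1.83 to 8.16 ± 2.10 CPM (−1.22; adjusted p = 0.000997, edgeR). Tdo2, which encodes the enzyme that opens the route from tryptophan, had no count in shNC and 23, 15 and 23 counts in shBmal1, at least 83.3-fold higher against a floor of 3 counts over the shNC group. Tdo2 met the count filter through shBmal1 alone, which fixed its direction. The downstream genes of that route Kmo, Kynu, Haao and Qprt had too few counts to be tested.

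Among 18 further genes whose products consume NAD or dispose of nicotinamide, all of them tested, 7 fell, 4 rose and 7 did not pass (median −0.14), where 71.3% of all tested genes were called. The median came to −0.40 without shBmal1 replicate 1, to −0.05 without shBmal1 replicate 3 and to 0.02 with library size alone. Aox1, an aldehyde oxidase gene that oxidises methylated nicotinamide, fell from 91.9 ± 5.08 to 11.2 ± 1.9 CPM (log2 fold change −3.03; adjusted p = 4.57e-07, edgeR). Sarm1, whose product is the NAD-cleaving executioner of axon degeneration, fell from 5.65 ± 0.21 to 0.726 ± 0.118 CPM on 8 counts in each shBmal1 library. Parp3, a DNA break sensor gene, fell from 81.2 ± 3.29 to 27.2 ± 1.40 CPM (−1.58; adjusted p = 1.07e-06, edgeR), much as Parp1 did, whereas Parp2 came to −0.31 and was not called (adjusted p = 0.143, edgeR).

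The 4 that rose were Tnks, Parp11, Parp6 and Cd38. Tnks, which encodes the poly(ADP-ribose) polymerase tankyrase, rose from 55.6 ± 0.93 to 214 ± 35.2 CPM (log2 fold change 1.95; adjusted p = 2.85e-06, edgeR), while its paralog Tnks2 fell by 0.67 on the log2 scale. Parp11 and Parp6, both encoding mono-ADP-ribosyltransferases, rose by 1.28 and 0.93. Cd38, which encodes a surface NAD glycohydrolase abundant on immune cells, rose from 2.23 ± 0.82 to 6.50 ± 1.04 CPM (1.54; adjusted p = 0.00538, edgeR). Beside it, the macrophage markers Cd68 (0.407 to 2.89 CPM; adjusted p = 0.00223, edgeR) and Lyz2 (0.575 to 2.76 CPM; adjusted p = 0.0144, edgeR) rose, Cd14 fell, and the pan-leukocyte marker Ptprc, too low to be tested, was at 0.0633 ± 0.110 CPM in shNC and 0.606 ± 0.710 CPM in shBmal1. Their part in the Cd38 result was not tested.

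**Figure D4:**
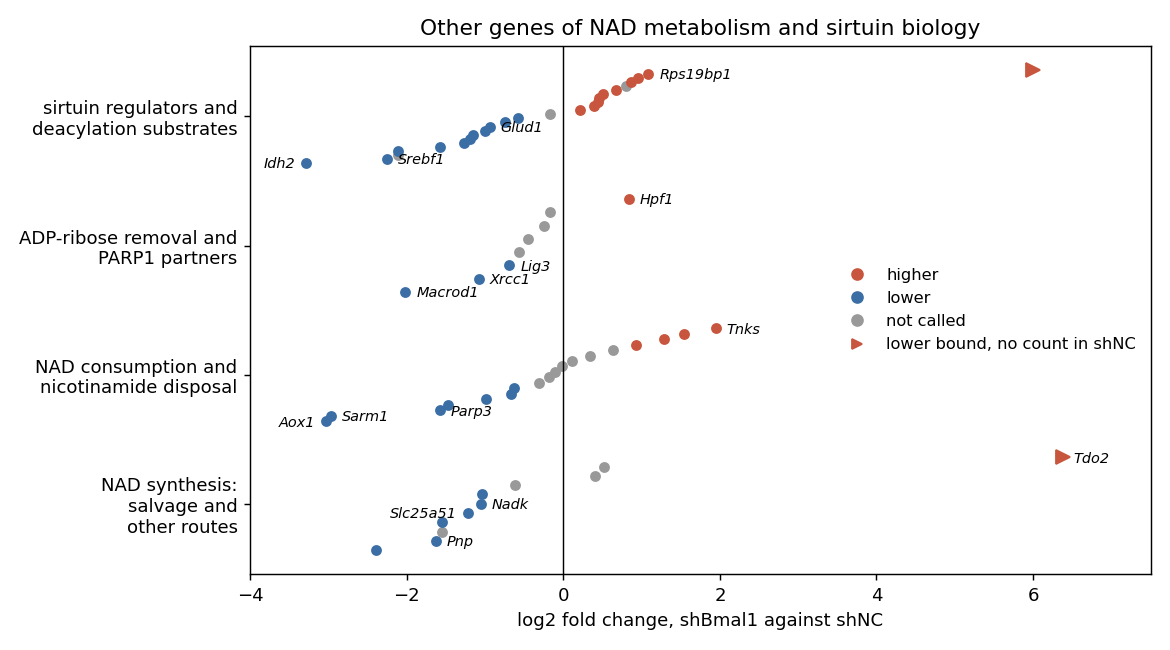
Log2 fold change in shBmal1 against shNC (edgeR) of the 61 other tested genes in 4 lists, red where higher and blue where lower at an adjusted p under 0.05, grey where not called, with triangles at the lower bound for Tdo2 and Cps1, which had no count in shNC. In the NAD synthesis list, which also holds genes of NAD precursors, phosphorylation and transport, the called genes other than Tdo2 lie on the lower side.

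Of 8 tested genes that remove ADP-ribose or work with PARP1 in repair, 3 fell, 1 rose and 4 did not pass (median −0.51), a smaller share of calls than the 71.3% over all tested genes. Xrcc1, the scaffold gene of single-strand break repair, fell from 33.7 ± 3.60 to 16.0 ± 1.83 CPM (log2 fold change −1.08; adjusted p = 0.000163, edgeR), and its partner ligase gene Lig3 fell by 0.69. Macrod1, which encodes an ADP-ribose hydrolase, fell from 7.35 ± 1.02 to 1.78 ± 1.09 CPM. Hpf1, which encodes the factor that directs PARP1 to serine, rose from 10.9 ± 0.82 to 19.3 ± 4.35 CPM (0.83; adjusted p = 0.00432, edgeR) and lost its call with TPM. Parg, encoding the main glycohydrolase of the polymer, came to −0.24 and was not called (adjusted p = 0.086, edgeR).

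Of 24 sirtuin regulators and substrates with enough counts, 10 rose, 11 fell and 3 did not pass (median −0.38), where 36% of all tested genes were higher and 35.3% lower. Without shNC replicate 1, 2 or 3, only 23 were tested, 7 were higher and the median was −0.22, −0.15 and −0.15. Without shBmal1 replicate 2, 7 of 24 were higher and the median was −0.44. Among the 10 was Cps1, a urea cycle gene with no count in shNC and 14, 19 and 15 counts in shBmal1, which met the count filter through shBmal1 alone. A pair of SIRT1 regulators went in opposite directions. Rps19bp1, which encodes its activator AROS, rose from 20.9 ± 1.02 to 44.5 ± 1.05 CPM (log2 fold change 1.09; adjusted p = 1.33e-05, edgeR), and Ccar2, which encodes its inhibitor DBC1, fell from 70.0 ± 0.68 to 41.6 ± 6.68 CPM (−0.75; adjusted p = 0.000645, edgeR). Genes for substrates of the mitochondrial sirtuins moved both ways, Idh2 falling from 86.4 ± 3.71 to 8.90 ± 2.95 CPM (−3.29; adjusted p = 4.36e-06, edgeR) and Glud1, a target of SIRT4, from 223 ± 3.47 to 116 ± 3.02 CPM (−0.94; adjusted p = 2.5e-06, edgeR). Sod2, the mitochondrial superoxide dismutase gene and a target of SIRT3, rose from 37.0 ± 2.03 to 58.9 ± 8.64 CPM (0.67). Srebf1, which encodes a lipogenic factor that SIRT1 deacetylates, fell from 107 ± 8.64 to 22.5 ± 2.86 CPM (−2.26; adjusted p = 9.89e-07, edgeR). With TPM, 4 of these 24 genes were higher and 13 lower.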

How the data were processed

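Gene expression was measured by RNA sequencing in 6 libraries. Per the submitters' processing notes the tools included HISAT2 2.0.4, cutadapt 1.9, StringTie 1.3.4d, DESeq2 and edgeR, whose roles are not stated. Genome build, annotation, counting program and strand setting: not given in the sources used here. Per the file headers, each gene has an unnormalized read count and an FPKM value, which the authors scaled for length and depth.

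Groups came from the sample titles. Genes were filtered with filterByExpr (minimum count 10, 15 in total). It applies the minimum as a CPM cutoff set at the median library size, so fewer raw counts suffice in the shallower shBmal1 libraries. TMM scaling was then applied. The groups were compared with the quasi-likelihood test of edgeR 4.0.16 in R 4.3.3, with group as the only term. A gene was called at a p under 0.05 after Benjamini-Hochberg adjustment over all tested genes. CPM are TMM-scaled. The procedure was tested on simulated counts in which few genes changed, unlike here. That test therefore cannot judge the TMM scaling of these data. DESeq2 1.42.0 and limma 3.58.1 on log2(FPKM or TPM + 1) served as alternatives. A fold change on that scale understates the change of low genes. No pair of libraries within a group agreed within sampling noise (lowest chi-square over its degrees of freedom, 11.2). The SE of an edgeR log2 fold change is its size divided by the square root of the quasi-likelihood F statistic. The SE and SD include the spread between libraries of a group, whereas the floors cover counting error only.

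The members and lists were chosen with earlier results of these data known. All 10 members are named, with the 4 genes of smallest p in each of 4 lists, any list gene where at most 5 moved in that direction, and the 3 genes most like Nampt and Sirt1, of which 1 is not reported here. Other genes named (Ccar2, Sod2, Parp2, Tnks2, Parg, Cps1, Naprt, Nt5e, Afmid, the marker genes and the divergent neighbours) were picked with their values seen. Of 76 list names, 69 genes other than the members were found.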

Additional observations from a re-analysis of the deposited data

How the results depend on the processing

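Sirt1, Sirt7, Parp1, Sirt3, Sirt5 and Nampt kept their direction and their call under all 19 alternatives, with the highest adjusted p at 0.0164 (Sirt3). Leaving out 1 library at a time changed 1 call of the 10, that of Nmnat1 without shBmal1 replicate 3. With TPM, also after rRNA was left out (an alternative added after seeing the data), 7 transcripts were lower and 9 of the listed pathway genes higher, against 4 and 16. There Nmnat1 came to −0.71 and −0.67, Sirt2 to −0.40 and −0.35, and Sirt6 turned to −0.33 and −0.28, each called. The median of all genes lay at −0.35 and −0.31 in these fits, and the cause was not tested. Sirt2, near 0, turned positive with RLE factors (0.041), library size alone (0.14), DESeq2 (0.042), FPKM at a pseudocount of 1 or 0.1 (0.075 and 0.078), thinning to the shallowest library (0.11), a gene length offset (0.063), and without shNC replicate 1 or shBmal1 replicate 1 (0.0034 and 0.052), within a range of −0.17 to 0.052 over left-out libraries. Sirt6 turned negative without a filter (−0.032), after quantile normalization of FPKM (−0.037), and when shBmal1 replicate 1 or 3 was left out (−0.061 and −0.016, in a range up to 0.11). None of these reversals passed the test except Sirt6 with TPM. No sign of pairing by replicate number was seen. Same-numbered deviations correlated at −0.07 to 0.02, and differently numbered ones at −0.083 to 0.082. With so few libraries this cannot show whether cultures were handled in pairs. With a replicate block 9415 genes were called against 10233, and 6 of the 10 transcripts as before. Sirt4 and Sirt3 rest on at most 20 and 68 counts per shBmal1 library, which limits what can be resolved for them.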

Other observations

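Of the 10 genes, 3 had a neighbour on the opposite strand whose start lay within 1 kb upstream in the deposited coordinates, and the pairs did not move alike. Nfkbib, which encodes the NF-kB inhibitor beta and starts 73 bases from Sirt2 on chromosome 1 (86941074 to 86948845), rose from 8.52 ± 0.50 to 140 ± 21.3 CPM (SD, n = 3; log2 fold change 4.04 ± 0.13, SE; adjusted p = 1.47e-07, edgeR), while Sirt2 came to −0.02. Psmd13, a proteasome subunit gene that starts 547 bases from Sirt3 (213636093 to 213648488), rose from 78.3 ± 1.96 to 158 ± 9.27 CPM (1.02 ± 0.07; adjusted p = 4.7e-06, edgeR), while Sirt3 fell by 1.06 on the log2 scale. Lzic, 146 bases from Nmnat1 on chromosome 5 (166430400 to 166442284), fell from 40.5 ± 3.12 to 17.2 ± 2.35 CPM (−1.23 ± 0.13; adjusted p = 5.91e-05, edgeR), with Nmnat1 at −0.40 and not called. The difference within a pair was not tested. The gene bodies of these pairs do not overlap in the table, and the only feature overlapping any of the 10 genes was a microRNA entry of 54 bases in Sirt7 on the same strand.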
